A study of Mus musculus with 384 samples.

Results

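Transcripts of 9 heat shock proteins and co-chaperones were followed in single cells sorted from the spinal cord of Optn KO mice. The genes were chosen by name from the 23420 genes of the expression matrix: Hspa1a, Hspa1b, Hspa5, Hspa8, Hsp90aa1, Hsp90ab1, Hsph1, Dnajb1 and Stip1. All cells carried the Optn KO genotype, and no control genotype was available for comparison. Spinal cords were digested with Accutase, an enzyme mixture that releases cells from tissue, and myelin was removed by centrifugation in BSA. Cells stained for CD45, CD11b and CX3CR1 were sorted singly into 4 plates, and SmartSeq2, a full-length single-cell RNA-seq method, was applied. Plates 1 and 2 are labelled as Optn KO replicate 1 and plates 3 and 4 as replicate 2. The labels do not say whether the replicates are separate mice, nor the age, the knockout allele or any treatment, so the spread between replicates may be technical. The comparisons set cell classes within these samples against each other: neutrophils against all other cells, Fos and Egr1 high against low neutrophils, granule-high against granule-low neutrophils, and cycling against non-cycling neutrophils.

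Heat shock proteins bind unfolded polypeptides and help them fold, travel or be degraded. HSP70 proteins act in cycles of ATP hydrolysis that J-domain proteins start and nucleotide exchange factors end, and some clients are then passed to HSP90. Heat and other proteotoxic stress release the transcription factor HSF1, which binds heat shock elements, inverted repeats of nGAAn, and induces the stress members within minutes, whereas the constitutive members are transcribed in unstressed cells. Fos and Egr1 are immediate early genes. Warm enzymatic digestion of tissue is known to induce both immediate early and heat shock transcripts, and neutrophils, short-lived cells with little mRNA, store most of their effector proteins in granules made in the bone marrow.

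Of the 6 promoters available, the 4 in which a stress element was matched are shown. Each line gives the 150 bases before the RefSeq transcription start (GRCm38.p6), 5′ to 3′ on the gene's strand, with the matched motif in capitals.
Hspa1a, chr17:34972157-34972306, minus strand: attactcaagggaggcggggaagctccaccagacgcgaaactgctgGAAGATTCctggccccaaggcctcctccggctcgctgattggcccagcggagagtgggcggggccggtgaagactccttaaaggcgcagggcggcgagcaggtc
Hspa1b, chr17:34959239-34959388, minus strand: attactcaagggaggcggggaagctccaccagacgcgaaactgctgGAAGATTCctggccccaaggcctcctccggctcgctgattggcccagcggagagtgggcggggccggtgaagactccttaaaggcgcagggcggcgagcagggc
Hsph1, chr5:149636337-149636486, minus strand: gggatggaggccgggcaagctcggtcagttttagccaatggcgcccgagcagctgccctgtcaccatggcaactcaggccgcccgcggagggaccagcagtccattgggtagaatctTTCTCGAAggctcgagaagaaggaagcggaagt
Hspa5, chr2:34771940-34772089, plus strand: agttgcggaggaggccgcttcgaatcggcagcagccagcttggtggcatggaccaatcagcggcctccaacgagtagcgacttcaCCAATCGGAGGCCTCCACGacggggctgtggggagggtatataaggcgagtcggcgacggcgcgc
The capitals in Hspa1a and Hspa1b mark GAANNTTC, 2 facing heat shock units, whose first base lies 104 bases before the start in each gene. In Hsph1 they mark TTCNNGAA, the same units back to back, from base -33, and in Hspa5 the ER stress element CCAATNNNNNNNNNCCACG, from base -65. Among 32851 mouse promoters searched over 250 bases on both strands, GAANNTTC stood in 6.69%, TTCNNGAA in 7.17% and the ER stress element in 0.113%. The promoters of Hspa1a and Hspa1b differed at 1 of the 150 bases shown and at 3 of the 250 searched. Promoter entries were found for 6 of the 9 genes. The run GAANNTTCNNGAA, present in 0.466% of promoters, was matched in none of the 6, so not in Hspa1a, Hspa1b or Hsph1 either. In Dnajb1 and Stip1 none of the motifs was matched, which says only that the letters are not in that window.

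In the annotation used here (GENCODE, GRCm38), Hspa1a (chr17:34969190-34972156) and Hspa1b (chr17:34956436-34959238) lie side by side on the minus strand. They shared 1716 stretches of 50 bases, 58.8% of those in Hspa1a and 62.3% of those in Hspa1b, so the split of reads between them is uncertain and their sum is given too. Hspa5 (chr2:34771970-34777547), Hspa8 (chr9:40800984-40810087) and Dnajb1 (chr8:83608193-83612653) are on the plus strand. Hsp90aa1 (chr12:110690605-110702728), Hsp90ab1 (chr17:45567775-45573271), Hsph1 (chr5:149614287-149636376) and Stip1 (chr19:7020702-7039967) are on the minus strand. All 9 are annotated as protein-coding, and the values are levels of whole genes.

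Of 326 cells analysed, 286 had S100a8 plus S100a9, the alarmin genes of neutrophils, at 10000 TPM or more, and are called neutrophils here: 131 in replicate 1 and 155 in replicate 2. The lowest neutrophil had 12512 TPM and the highest of the 40 other cells 4019 TPM, with no cell between them. A threshold of 1000 TPM gave 134 and 158 neutrophils by replicate, and one of 50000 TPM gave 122 and 142. The neutrophils had a median of 10 of 11 neutrophil markers above 0. These markers include S100a8 and S100a9, which define the class, so part of this count follows from the rule. The series title names microglia, but no cell of either class had 3 or more of 13 microglia markers, and the markers' summed level was 32.7 to 61.6 TPM in neutrophils and 50.6 to 159 TPM in the other cells. Sall1, C1qc, Fcrls and Slc2a5 were at 0 in all cells. Of the 40 other cells, 27 had 3 or more of 7 monocyte markers and 9 were cycling. Of the neutrophil markers, S100a8 and S100a9 among them, 36 of these cells had 3 or more and 18 had 5 or more. Neutrophils had a median of 1604.5 genes above 0, against 3027.5 in the other cells.

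The stress-inducible HSP70 genes were at or close to 0 in the neutrophils, whereas 14 of the 40 other cells had Hspa1a. Hspa1a, an inducible cytosolic HSP70, averaged 0.0206, 0.0309, 4.74 and 0 TPM in the neutrophils of plates 1 to 4, against 365, 561, 55.9 and 279 TPM in the other cells of the same plates. The plate means of the classes did not overlap. How often this holds among all genes is not given, so non-overlap, here and below, is not read as particular to the members. It was above 0 in 5 of 286 neutrophils, and 4 of these had 1.98 TPM or less. The exception was 1 cell of plate 3 with 363 TPM, which set the mean of its plate. In the other cells, values above 0 ran from 21.5 to 4879 TPM, and the share of cells above 0 was 50, 30.8, 25 and 33.3% by plate. Per replicate the share in neutrophils was 1.53% (exact 95% binomial interval 0.185 to 5.41%) and 1.94% (0.401 to 5.55%), against 39.1% (19.7 to 61.5%) and 29.4% (10.3 to 56%) in the other cells. The intervals cover counting error only.

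Hspa1b, the neighbouring and nearly identical inducible HSP70, was at 0 in all 286 neutrophils. A count of 0, with 3 cells taken as its limit, allows a share of up to 2.29% in replicate 1 and 1.94% in replicate 2 for cells in which the transcript was detected. It sets no limit on cells that express it below detection. It was above 0 in 6 of the 40 other cells, all of replicate 1, at 40.8 to 319 TPM. Hspa1a plus Hspa1b averaged 1.19 ± 1.65 TPM in neutrophils and 340 ± 234 TPM in the other cells (SD, n = 2). The other cells of replicate 1 averaged 505 TPM for the pair and those of replicate 2 averaged 174 TPM, so the replicates of this class differed about as much as the SD shows. Hsph1, the HSP110 that exchanges nucleotide on HSP70, was above 0 in 2 of 286 neutrophils, at 7.4 and 7.9 TPM, against 7 of 40 other cells with up to 307 TPM. Its plate means overlapped, since it was at 0 in the other cells of plate 3.

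**Figure D1:**
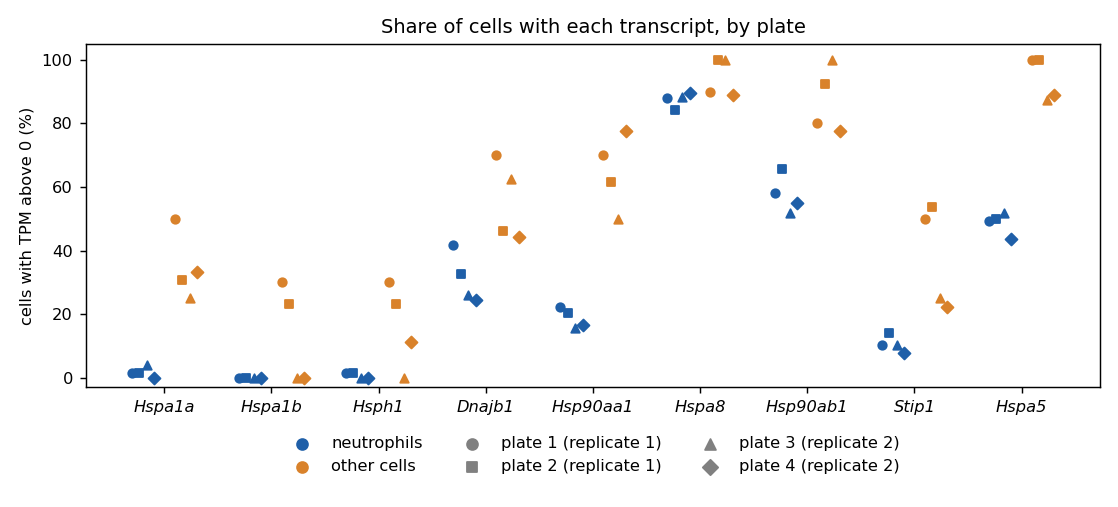
Percent of cells with each transcript above 0 TPM, by plate, for neutrophils (blue, left of each pair) and other cells (orange). Hspa1a was above 0 in 0 to 3.9% of the neutrophils of a plate and in 25 to 50% of the other cells, whereas Hspa8 was above 0 in 84.4% or more of either class on every plate.

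The depth of the cells moved with class, and the difference in Hspa1a was also present between cells with many genes. Among cells with 2000 or more genes, Hspa1a was above 0 in 0 of 69 neutrophils and in 12 of 30 other cells, whose median gene numbers were 2299 and 3287. With 3000 or more genes it was above 0 in 0 of 9 neutrophils (median 3793 genes) and in 10 of 20 other cells (median 3654 genes). The 14 other cells with Hspa1a were spread over 10 of the 27 with monocyte markers, 4 of the 9 cycling cells, 1 of 2 with B cell markers and the 1 with T or NK cell markers. Of the 18 other cells with 5 or more neutrophil markers, 7 had Hspa1a, so 7 of the 22 without so many had it too.

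The remaining inducible genes were present in neutrophils, each in a minority of cells. Dnajb1, the J-domain protein that starts the HSP70 cycle in the cytosol, averaged 84.9, 87.8, 44.6 and 88 TPM in the neutrophils of plates 1 to 4, against 239, 116, 109 and 135 TPM in the other cells. It was above 0 in 31.3% ± 8.66 of neutrophils and 54.7% ± 2.53 of the other cells (SD, n = 2). Every neutrophil plate mean lay below every mean of the other cells. Hsp90aa1, the inducible cytosolic HSP90, averaged 33.5, 35.6, 60.9 and 40.3 TPM in neutrophils, against 212, 254, 307 and 550 TPM in the other cells. It was above 0 in 18.8% ± 3.71 of neutrophils and 65% ± 0.362 of the other cells, again without overlap of the plate means.

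Hspa8, Hsp90ab1 and Hspa5 had the highest mean levels of the 9 in both classes. Hspa8, the constitutive HSP70 (HSC70), averaged 1266, 971, 1587 and 1644 TPM in the neutrophils of plates 1 to 4, against 3995, 3306, 4090 and 3674 TPM in the other cells. It ranked 86th by mean TPM in neutrophils and 21st in the other cells, and was above 0 in 87.7% ± 1.96 and 94.9% ± 1.09 of cells. Hsp90ab1, the constitutive HSP90, averaged 234, 251, 192 and 253 TPM in neutrophils, against 750, 1107, 753 and 727 TPM in the other cells, and the plate means did not overlap. Stip1, the adaptor that ties HSP70 to HSP90 (HOP), averaged 11.8, 41.8, 13.2 and 11.9 TPM in neutrophils, against 84.5, 78.1, 48.9 and 20.8 TPM in the other cells. Here the classes overlapped, since neutrophils of plate 2 lay above other cells of plate 4.

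Hspa5, the HSP70 of the endoplasmic reticulum (BiP), averaged 297, 231, 360 and 314 TPM in neutrophils, against 832, 996, 424 and 804 TPM in the other cells. It was above 0 in 48.7% ± 1.33 of neutrophils and 94.1% ± 8.32 of the other cells, and its plate means did not overlap.

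**Figure D2:**
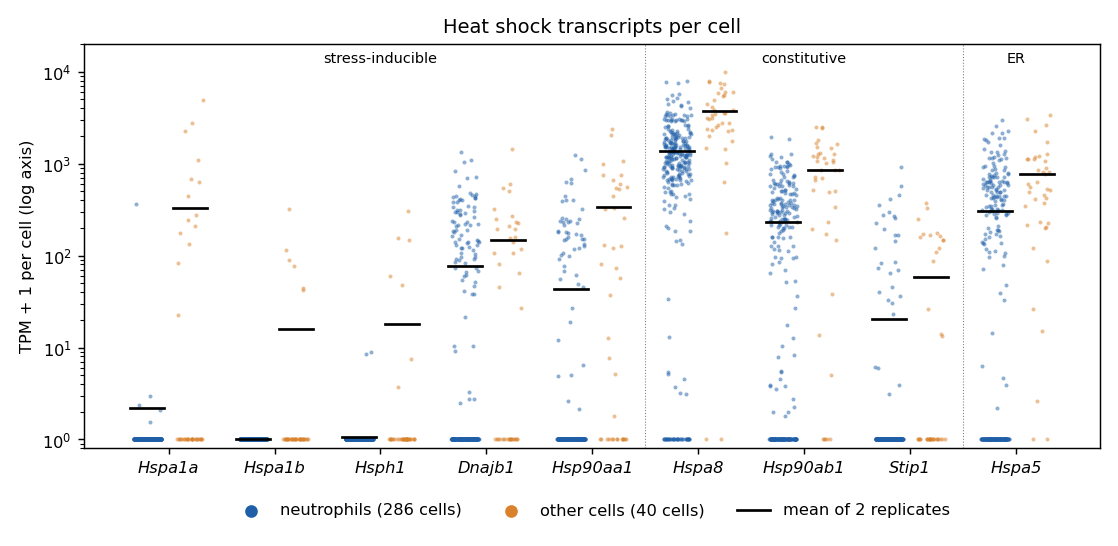
TPM + 1 of each cell on a log axis for the 9 genes, with neutrophils (blue, 286 cells) left of other cells (orange, 40 cells) and the mean of 2 replicates as a bar. The neutrophils lie at 0 TPM for Hspa1b and, but for 5 cells, for Hspa1a, while Hspa8 forms a continuous cloud in both classes.

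TPM is scaled by gene length, so mean levels can be ordered within a class. In neutrophils the order was Hspa8 (1369 ± 349 TPM), Hspa5 (301 ± 51 TPM), Hsp90ab1 (233 ± 13.7 TPM), Dnajb1 (76.4 ± 14.1 TPM), Hsp90aa1 (42.5 ± 11.3 TPM), Stip1 (19.5 ± 9.84 TPM), Hspa1a, Hsph1 (0.0584 TPM) and Hspa1b (SD, n = 2). Neighbours from Hspa8 to Stip1 differed by more than their SDs, but the order turned round on plate 2 for Hspa5 and Hsp90ab1 and for Hsp90aa1 and Stip1, and on plate 3 for Dnajb1 and Hsp90aa1. Hspa1a and Hsph1 did not differ beyond their spread. In the other cells Hspa8 again led, at 3738 ± 187 TPM. Hsp90ab1 (845 ± 150 TPM) and Hspa5 (775 ± 212 TPM) did not differ beyond their spread, nor did Hsp90aa1 (336 ± 141 TPM), Hspa1a (325 ± 214 TPM) and Dnajb1 (146 ± 32.9 TPM) in sequence, nor the lowest levels, those of Stip1 (57.5 ± 33.2 TPM), Hsph1 (16.8 ± 11.6 TPM) and Hspa1b (14.8 ± 21 TPM), from one to the next.

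Set against each other as sums, the 5 inducible genes (Hspa1a, Hspa1b, Hsph1, Dnajb1, Hsp90aa1) came to 121 and 119 TPM in the neutrophils of replicates 1 and 2, against 935 and 741 TPM in the other cells. Grouped here as constitutive, the 3 cytosolic genes Hspa8, Hsp90ab1 and Stip1 came to 1391 and 1851 TPM in neutrophils. In the other cells they came to 4638 and 4643 TPM. Of these sums Stip1 held 26.4 and 12.5 TPM in neutrophils and 80.9 and 34 TPM in the other cells. Whether Stip1 was constitutive in these cells was not tested. The ratio of inducible to constitutive was 0.087 and 0.0645 in neutrophils, against 0.202 and 0.16 in the other cells. By plate the classes overlapped, with 0.0976 in the neutrophils of plate 2 and 0.0964 in the other cells of plate 3. Within the HSP90 pair, Hsp90ab1 over Hsp90aa1 was 7.02 and 4.41 in neutrophils, against 4.04 and 1.7 in the other cells. The replicates of the classes did not overlap, but the plates did, with 3.16 in the neutrophils of plate 3 and 4.36 in the other cells of plate 2.

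Low Hspa1a in neutrophils stood beside high Fos. Fos averaged 4815 ± 340 TPM in neutrophils and 3914 ± 332 TPM in the other cells, and was above 0 in 96.2% ± 0.0383 and 89.8% ± 2.17 of cells (SD, n = 2). Egr1 was above 0 in 16.3% ± 1.52 of neutrophils and 44.5% ± 4.7 of the other cells, with mean levels of 208 ± 102 and 786 ± 100 TPM. Among cells with Fos of 1000 TPM or more, Hspa1a was above 0 in 4 of 229 neutrophils and 11 of 30 other cells. With Fos of 5000 TPM or more it was above 0 in 4 of 91 neutrophils and 4 of 12 other cells. Of these 4 neutrophils, 3 held 1.98 TPM or less. The other cell with the highest Hspa1a, 4879 TPM, had Fos at 418 TPM, and 1 cell with Hspa1a had none.

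**Figure D3:**
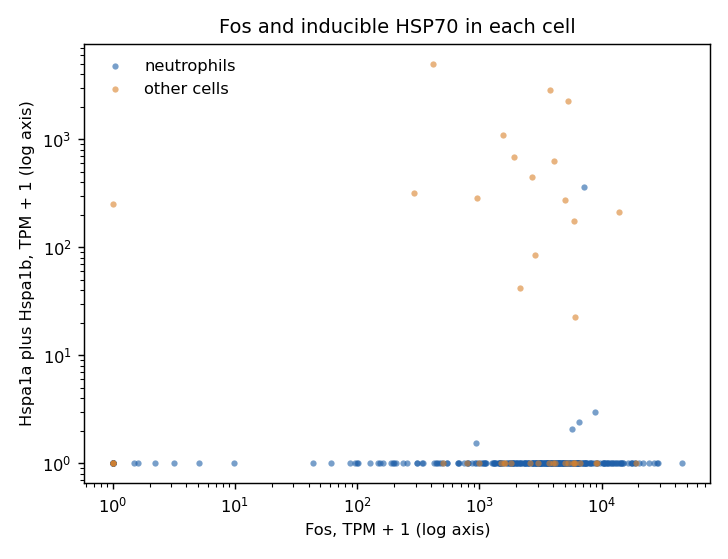
Fos against Hspa1a plus Hspa1b in each cell, both as TPM + 1 on log axes, for neutrophils (blue) and other cells (orange). Neutrophils reach 45370 TPM of Fos with the HSP70 pair at or near 0, apart from 1 cell at 363 TPM, and other cells with the pair are found over a wide range of Fos.

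Among the other cells, 14 with Hspa1a were set beside 26 without. This split uses Hspa1a itself and is given as a description, with no test. Dnajb1 was above 0 in 12 of 14 cells with Hspa1a and 10 of 26 without, Hsp90aa1 in 11 of 14 and 15 of 26, and Stip1 in 8 of 14 and 8 of 26. Hspa8 and Hspa5 were each above 0 in 13 of 14 and 25 of 26. Mean levels of Dnajb1 were 162 and 143 TPM, of Hsp90aa1 473 and 238 TPM, and of Hspa5 684 and 858 TPM in cells with and without Hspa1a. Hspd1, the mitochondrial HSP60, was above 0 in 10 of 14 and 9 of 26. Bag3, an HSP70 nucleotide exchange factor and HSF1 target, was above 0 in 5 of 14 and 9 of 26, and Hspb1, a small heat shock protein, was at 0 in all 40. Fos averaged 3879 TPM in both sets. The cells with Hspa1a also had more genes above 0, a median of 3381 against 2693, and the part of this in the shares was not tested.

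The classes were compared with limma on log2(mean TPM + 1) of the cells of each class in each replicate, with replicate as a block, and a gene was called at an adjusted p (Benjamini-Hochberg over all genes tested) under 0.05. With 2 replicates the fit had 1 residual degree of freedom, so its p-values rest largely on the spread pooled over genes. Between neutrophils and other cells, 4 of the 6 members that passed the filter on low values were lower in neutrophils and none was higher, in a comparison that called 25.2% of 4584 genes, 16.3% of them lower and 8.9% higher. Hspa1a, Hspa1b and Hsph1 did not pass the filter, which asked for a mean of 5 TPM and 10% of cells above 0 over both classes together. Neutrophils are 286 of the 326 cells, so the filter removes genes found mainly in the other cells, and these 3 members are described by their values above, with no fold here. In this comparison a log2 fold of 0 would mean equal TPM, and the median over all genes was -0.23.

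Hspa8 was lower in neutrophils by a log2 fold of -1.47 (SE 0.171, limma adjusted p = 5.91e-07). Hsp90aa1 had the largest difference of the 6, -2.91 (SE 0.447, limma adjusted p = 2.57e-05), and Hsp90ab1 followed with -1.85 (SE 0.292, limma adjusted p = 3.59e-05). Hspa5 was lower by a log2 fold of -1.35 (SE 0.3, limma adjusted p = 0.00196), a call that was lost, at -0.95, when TPM was rescaled. That rescaling left out S100a8, S100a9, Rn45s and the 8 specific granule genes and set the rest of each cell to a fixed total. The neutrophil markers, which overlap with these genes in part, took 256200 to 259900 TPM in neutrophils, against 2300 to 2626 TPM in the other cells. Dnajb1 (-0.92, limma adjusted p = 0.152) and Stip1 (-1.48, limma adjusted p = 0.11) missed the threshold. All 6 had the same sign in each replicate, and no alternative setting reversed one. Without a filter no gene of 14135 was called, with 2313 at an unadjusted p under 0.05, and Hspa1a had a limma adjusted p = 0.216.

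In the 4 other chaperone lists the counts of genes called lower stand against 16.3% of all genes. The filter takes both classes together, and some of these genes passed it only through the other cells. The counts include such genes, whose folds are given as values only. No gene of these lists was called higher, and 1 co-chaperone was with a pseudocount of 10 or with averages per plate. Of the TRiC chaperonin, the ring that folds actin and tubulin, all 7 subunits tested were lower, with a median log2 fold of -2.4 against -0.23 over all genes, with 6 of 7 lower when TPM was rescaled, 5 of 7 without cycling cells and 4 of 8 with cells of 2000 or more genes. Cct6a, the largest difference, averaged 17.2 and 42.6 TPM in the neutrophils of replicates 1 and 2, against 180 and 374 TPM in the other cells. Cct8 averaged 52.8 and 49 TPM in neutrophils, against 320 and 290 TPM in the other cells. Tcp1 (-3.11), Cct4 (-2.4) and Cct5 (-2.24) were the others named by the size of their log2 fold. In replicates 1 and 2, Cct6a was above 0 in 6.11 and 9.68% of neutrophils and Tcp1 in 9.16 and 6.45%. Both lie under the 10% the filter asks for.

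Of 16 genes tested for ER chaperones and the unfolded protein response, 7 were lower (median log2 fold -1.3), 4 with TPM rescaled, and 3 of 21 with cells of 2000 or more genes. Pdia6, a protein disulphide isomerase, averaged 21 and 17.6 TPM in the neutrophils of replicates 1 and 2, against 182 and 356 TPM in the other cells. It was above 0 in 6.11 and 8.39% of these neutrophils, under the 10% the filter asks for. Canx and Calr, the lectin chaperones calnexin and calreticulin, had log2 folds of -2.42 and -1.69. Hsp90b1, the HSP90 of the ER, averaged 102 and 79.4 TPM in neutrophils, against 342 and 379 TPM in the other cells, and the isomerase Pdia3 had a log2 fold of -1.69.

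Of 12 co-chaperones of HSP90 and HSP70, 4 were lower (median log2 fold -0.44). With TPM rescaled or without cycling cells 2 of 12 were lower, and with cells of 2000 or more genes 1 of 12. The 2 of 12 lie near the 16.3% of all genes under the settings of the report. The share of all genes called lower under these alternatives is not given. The 4 were St13 (-3.04), which binds HSP70, Cdc37 (-1.98), which brings kinases to HSP90, Stub1 (-1.76), the ubiquitin ligase CHIP, and Ptges3 (-1.37), the HSP90 co-chaperone p23. St13 was above 0 in 6.87 and 10.3% of the neutrophils of replicates 1 and 2. Of 7 genes tested from the HSF1-induced list outside the members, 3 were lower (median log2 fold -0.46), Cacybp, Hspd1 and Chordc1. By replicate, Cacybp was above 0 in 7.63 and 8.39% of neutrophils and Chordc1 in 6.11 and 9.03%, under the filter's 10%. With TPM rescaled 2 of 7 were lower, and without cycling cells, which were 9 of the 40 other cells, none of 5 was. Hspd1 averaged 29.4 and 21 TPM in the neutrophils of replicates 1 and 2, against 127 and 116 TPM in the other cells. Of 17 immediate early genes other than Fos and Egr1, 3 were lower, Jun, Nr4a1 and Atf3, and the median log2 fold was 0.14, whereas a neutrophil threshold of 50000 TPM gave 8 lower and a median of -0.99. Hsf1, which encodes the stress factor itself, did not pass the filter and was above 0 in 4.31% ± 3.94 of neutrophils and 29.9% ± 0.723 of the other cells (SD, n = 2).

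**Figure D4:**
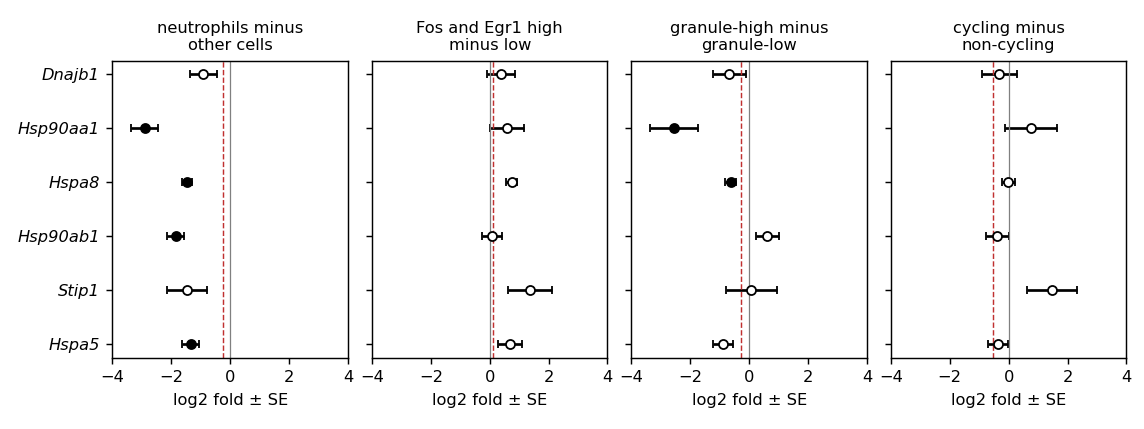
Log2 fold ± SE of the 6 members that passed the filter in 4 comparisons of cell classes (limma, 2 replicates). Filled points were called at adjusted p under 0.05, open points were not, the grey line marks 0 and the dashed red line the median of all genes tested. The 4 calls between neutrophils and other cells are all negative, and 2 calls, Hspa8 and Hsp90aa1, both lost in most alternatives, appear between granule-high and granule-low neutrophils.

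Within the neutrophils, none of the 6 members was called between cells with high and low Fos and Egr1, in a comparison that called 0.334% of 4197 genes, 0.286% higher and 0.0477% lower. Cells were ranked in each plate by the mean z-score of Fos and Egr1, adjusted for the number of genes detected, and the highest of 3 equal parts (94 cells) was compared with the lowest (94 cells). Fos and Egr1 were left out of the test. The score is continuous: 96 and 103 of 286 cells lay within 0.25 SD of the upper and the lower border. The cells of the high part had medians of 1803 and 1812 genes, against 1662 and 1433 in the low part.

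Hspa8 had the lowest p of the members here. It averaged 1493 and 1923 TPM in the Fos and Egr1 high cells of replicates 1 and 2, against 745 and 1376 TPM in the low cells, and was higher in the high cells on each of the 4 plates. Its log2 fold was 0.74 (SE 0.2, unadjusted p = 0.00313, limma adjusted p = 0.34). It passed the threshold with averages of log2 values (2.14) and with a wider list of immediate early genes behind the score (0.78). Hspa5 averaged 371 and 331 TPM in high cells, against 125 and 371 TPM in low cells, so the replicates went opposite ways.

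The inducible members showed no called difference. Dnajb1 averaged 90 and 94.9 TPM in high cells, against 89.2 and 56.2 TPM in low cells (log2 fold 0.38, SE 0.476, limma adjusted p = 0.875). Hsp90aa1 averaged 51.2 and 54.6 TPM in high cells, against 25.7 and 47.2 TPM in low cells (log2 fold 0.59, SE 0.583). Hspa1a was above 0 in 3 of 94 high cells and 1 of 94 low cells, at under 2 TPM in each. Stip1 (1.38, SE 0.753) and Hsp90ab1 (0.07, SE 0.335) were not called either.

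Some immediate early genes were higher in the cells with a high score. Of 17 tested, 6 were higher in the Fos and Egr1 high cells and none was lower, against 0.286% of all genes called higher, and 11 did not pass. Without the replicate block 1 of 17 was higher, with 2 in place of 3 parts 1 of 17, and with a neutrophil threshold of 50000 TPM 0 of 16. Atf3, a stress-response factor, averaged 626 and 440 TPM in high cells, against 47.2 and 64.8 TPM in low cells. It was above 0 in 25.6 and 17.6% of high cells, against 4.65 and 7.84% of low cells. The low cells alone lie under the 10% the filter asks for, so its difference is given as a value only. Ppp1r15a (GADD34), which restarts translation after stress, had a log2 fold of 3.05 (SE 0.385), Nr4a1 1.85, Btg2 1.23 and the phosphatase Dusp1 1.18. By replicate, Ppp1r15a was above 0 in 46.5 and 27.5% of high cells, against 6.98 and 11.8% of low cells. Over both replicates its low cells too lie under 10%, so its fold is also given as a value only. The count of 6 includes Atf3 and Ppp1r15a. No gene was called among 5 genes of the HSF1-induced list, 12 co-chaperones, 14 ER genes and 5 TRiC subunits.

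Co-variation across the neutrophils of each plate gave weak relations, which are described by Spearman's rho with no test, since the cells of a plate share a library preparation. Adjusted for the number of genes detected, Hspa8 with Egr1 had rho of 0.379, 0.0907, 0.195 and 0.275 on plates 1 to 4 (67, 64, 77 and 78 cells). Egr1 was above 0 in only 11, 9, 11 and 16 of these cells, so each rho with Egr1 rests on few cells. Hspa8 with Fos had 0.341, 0.255, -0.0931 and 0.299, and Hspa5 with Fos 0.369, 0.267, -0.054 and 0.136, so plate 3 had the opposite sign. For comparison Fos with Egr1 had 0.295, 0.192, 0.0977 and 0.354.

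Dnajb1 and Hsp90aa1 had adjusted rho of both signs with Fos. Dnajb1 with Fos had 0.0994, -0.000277, -0.0663 and 0.0711, and Hsp90aa1 with Fos -0.0763, 0.0968, -0.155 and 0.0398. Hspa1b was constant at 0 and Hspa1a and Hsph1 were too sparse for a rho. The number of genes above 0 was itself related to Fos, with rho of -0.409, -0.626, -0.602 and -0.453, and to Hsp90ab1, with 0.32, 0.261, 0.265 and 0.273. Without the adjustment Hspa8 with Fos had 0.306, 0.0307, -0.17 and 0.206, lower on each plate, and Hsp90aa1 with Fos had -0.252, -0.193, -0.103 and -0.0152, below 0 on each plate.

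**Figure D5:**
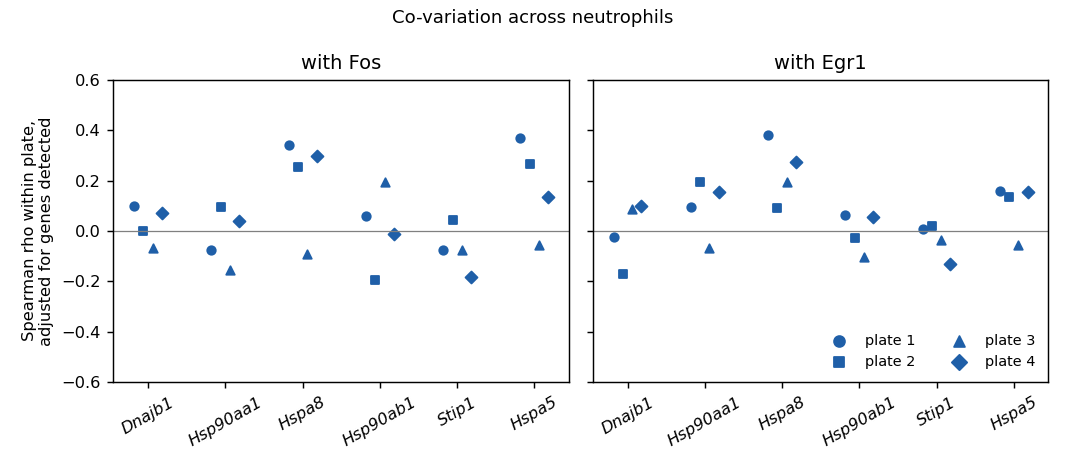
Spearman's rho across the neutrophils of each plate between 6 members and Fos (left) or Egr1 (right), adjusted for the number of genes detected. Hspa8 lies above 0 with Egr1 on all 4 plates, from 0.0907 to 0.379, while Dnajb1 and Hsp90aa1 scatter on both sides of 0. Egr1 was above 0 in 9 to 16 neutrophils of a plate.

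The members were also weakly related to each other. Hspa8 with Hspa5 had the same sign on all plates, with adjusted rho of 0.0626, 0.187, 0.126 and 0.193, and Hspa8 with Dnajb1 lay between -0.0382 and 0.0578. Hsp90aa1 with Dnajb1 had 0.0341, 0.0404, 0.109 and 0.0171. The HSP90 pair had 0.148, 0.0174, 0.143 and -0.0447. Of 4053 genes, 6 had an adjusted rho of at least 0.2 with Hspa8 on all 4 plates. Among them were H2-D1, a class I MHC gene, with a mean rho of 0.353, and Siglece, a sialic acid receptor of myeloid cells, with 0.295. No gene met that limit for Hspa5, Hsp90ab1 or Dnajb1.

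Along the granule axis, Hspa8 was called lower in granule-high neutrophils, where 13.9% of 3717 genes were called, 10.6% lower and 3.34% higher. Hsp90aa1 was called too, but it reached the filter through the granule-low cells. Non-cycling neutrophils were ranked by 8 specific granule genes, which are made while neutrophils mature and fall off later, and the highest and lowest of 3 equal parts (88 cells each) were compared. Here 66 and 56 of 269 cells lay within 0.25 SD of the borders. Hspa8 averaged 859 and 1425 TPM in the granule-high cells of replicates 1 and 2, against 1424 and 2049 TPM in the granule-low cells, and was lower on each plate. Its log2 fold was -0.63 (SE 0.191, limma adjusted p = 0.0143), against a median of -0.29 over all genes, and with TPM rescaled it was -0.26 and not called. Hsp90aa1 averaged 23.4 and 2.73 TPM in granule-high cells, against 36.8 and 81.4 TPM in granule-low cells (log2 fold -2.55, SE 0.816, limma adjusted p = 0.0222). It was above 0 in 5 of 88 granule-high and 17 of 88 granule-low cells. The granule-high cells alone lie under the 10% the filter asks for, so the call is given as a value only. On plate 1 the order was opposite, with 33.9 TPM in granule-high and 9.97 TPM in granule-low cells, and the fold within replicate 1 was -0.63 against -4.47 in replicate 2. Both calls were lost in most of the 14 alternatives tried, Hspa8 in 9 and Hsp90aa1 in 12, and without the replicate block the limma adjusted p was 0.215 and 0.151.

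Hsp90ab1 had a fold of the opposite sign. It averaged 280 TPM in the granule-high cells of both replicates, against 177 and 187 TPM in granule-low cells, and was above 0 in 72.5 and 60.4% of granule-high cells, against 47.5 and 35.4% of granule-low cells. The log2 fold of 0.62 (SE 0.375, limma adjusted p = 0.318) was called only with averages of log2 values (1.88). Hspa5 averaged 189 and 231 TPM in granule-high cells, against 313 and 478 TPM in granule-low cells (log2 fold -0.89, SE 0.338, limma adjusted p = 0.0632). Dnajb1 (-0.67) and Stip1 (0.07) were not called, and the sign of Stip1 differed between replicates. Granule-high cells had medians of 1756 and 1608 genes, against 1526 and 1366 in granule-low cells.

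Most immediate early genes tested were lower in granule-high cells too, and their part in the chaperone values was not tested. Of 16 tested, 13 were lower in granule-high cells and 1 higher. Fos averaged 3104 and 3665 TPM in granule-high cells, against 7049 and 8642 TPM in granule-low cells, and Atf3 was at 0 in all 88 granule-high cells, against 872 and 612 TPM in granule-low cells. Atf3 thus passed the filter through the granule-low cells only and is given as a value. By replicate, Fosb was above 0 in 10 and 6.25% of granule-high cells and Ppp1r15a in 7.5 and 10.4%. Over both replicates these also lie under the 10% the filter asks for. The count of 13 includes Atf3, Fosb and Ppp1r15a. Of 13 ER genes 2 were lower: Ddit3, the ER stress factor CHOP, with 9.98 and 35.6 TPM in granule-high cells against 135 and 215 TPM in granule-low cells, and Herpud1 (-1.85), of ER-associated degradation. Ddit3 was above 0 in 5 and 12.5% of the granule-high cells of replicates 1 and 2. Over both replicates it lies under the filter's 10% in these cells, so its difference is given as a value only. Of 4 genes tested from the HSF1-induced list 1 was lower, Dedd2 (-1.26), which does not encode a chaperone. Of 11 co-chaperones and 5 TRiC subunits none was called.

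Cycling neutrophils, the 17 cells with 6 or more of 16 proliferation genes above 0, were compared with the 269 non-cycling ones. None of the 6 members was called, where 11.6% of 4048 genes were, 2.22% higher and 9.36% lower. Hspa8 averaged 1365 and 1311 TPM in the cycling cells of replicates 1 and 2, against 1104 and 1632 TPM in non-cycling cells (log2 fold -0.01, SE 0.225). Hsp90aa1 was above 0 in 9 of 9 cycling cells of replicate 1 and 1 of 8 of replicate 2, with means of 139 and 29.1 TPM, against 26.8 and 51.7 TPM in non-cycling cells. The replicates therefore went opposite ways. Stip1 was above 0 in 44.4 and 25% of cycling cells, against 9.84 and 8.16% of non-cycling cells (log2 fold 1.48, SE 0.838, limma adjusted p = 0.306).

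Cycling cells held many more genes, medians of 3793 and 2681 against 1668 and 1523, while Fos was lower, at 276 and 672 TPM in cycling cells against 4891 and 5294 TPM in non-cycling cells. With averages of log2 values, which weigh how many cells have a transcript, Hspa5 (2.31), Hspa8 (1.46) and Hsp90aa1 (2.66) were called higher in cycling cells, so a call depends on how cells are averaged. Of 15 ER genes 1 was higher, Hsp90b1, with 317 and 396 TPM in cycling cells against 86.2 and 62.2 TPM in non-cycling cells (log2 fold 2.26, SE 0.418, limma adjusted p = 0.0401). The 5 TRiC subunits tested had a median log2 fold of 1.57, against -0.54 over all genes, and none was called. With averages of log2 values 5 of 5 TRiC subunits and 10 of 15 ER genes were called higher, where the median of all genes was 0.77, and with a pseudocount of 10 it was 4 of 5 TRiC subunits. Under both settings more genes were called than with the settings of the report, and the share of all genes called higher is not given. These counts, and the members called higher above, are therefore not read as particular to chaperones. Of 17 immediate early genes 9 were lower and none was higher. By replicate, Atf3 was above 0 in 0 and 0% of cycling cells, Ppp1r15a in 11.1 and 0%, and Socs3 in 0 and 12.5%. The count of 9 includes these genes, which passed the filter through the non-cycling cells. Hspa1a and Hspa1b were at 0 in all 17 cycling neutrophils, and Hsph1 was above 0 in 1 of them.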

How the data were processed

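SmartSeq2 libraries of single cells from 4 plates were analysed. The authors deposited TPM per gene and cell, made with RSEM on mm10 per the submitters' processing notes; no aligner, annotation or version is named there. TPM holds no depth, so counting precision per cell is unknown. Of 384 labelled cells, 326 had a column, 58 were not analysed here, and 0 further columns were left unused. Each cell sums to a fixed total, so abundant transcripts lower the rest.

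Averages over cells per class and replicate were computed from the TPM, taken as log2(mean + 1) and compared with limma 3.58.1 (R 4.3.3; trend, robust, replicate block), for genes with a mean of at least 5 TPM and at least 10% of cells above 0 over the cells of both classes together. Both classes come from the same replicate, which pairs them. The genes that define a class were left out. The code was tested on simulated data. Spearman's rho came from scipy 1.17.1.

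The members and gene lists were chosen with earlier results of these data known. Genes named are the 9 members, up to 5 called genes per list by the size of the fold, the leading genes by likeness (1 is not reported here), and, for context, Hsf1, Bag3, Hspb1, Hspd1 and Egr1 beside Fos, chosen after their values were seen. For the list genes Ly6g and Trac no row was matched; Chil3 is listed as Chi3l3. Alternatives were another pseudocount, averages of log2 values, averages per plate, rescaled TPM, no filter, other class borders, fewer cells and no block.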

Additional observations from a re-analysis of the deposited data

Results flagged for a closer look

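In 4 of 34 groups of 4 plate means, 1 plate stood far from the others by Dixon's test, which chance does in about 1 of 20 groups. Hspa1a in neutrophils averaged 4.735 TPM on plate 3, the value of a single cell with 363 TPM. Dnajb1 in neutrophils averaged 44.56 TPM on plate 3, against 84.9 to 88 TPM on the other plates. Stip1 in neutrophils averaged 41.75 TPM on plate 2, against 11.8 to 13.2 TPM. Hsp90ab1 in the other cells averaged 1107 TPM on plate 2, against 727 to 753 TPM.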

How the results depend on the processing

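Between neutrophils and other cells, the log2 folds of the 6 members kept their sign under every alternative, and the calls of Hspa8, Hsp90aa1 and Hsp90ab1 were lost only without a filter on low values (limma adjusted p = 0.189 each), while Hspa5 lost its call in 3 of 12 alternatives. Both calls on the granule axis were lost in most alternatives, with limma adjusted p up to 0.912. Of 365 member folds under alternatives, 33 had the opposite sign. The 365 include the folds within 1 replicate, but the sign turns of those folds, given at the end, are not counted in the 33. None of the 33 was a fold called with the settings of the report. The cause was not tested except where stated. TPM gives no depth per cell, and the number of genes above 0 stood in for it.

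The number of genes called was 1155 between neutrophils and other cells, 14 between Fos and Egr1 high and low, 518 between granule-high and granule-low and 469 between cycling and non-cycling neutrophils. Without a filter, where more genes were tested, it was 0, 0, 29 and 0 in that order, with 2313, 346, 913 and 1597 genes at an unadjusted p under 0.05 in limma. Without the replicate block it was 865, 4, 241 and 570. The pairing comes from the design, since both classes were sorted from the same replicate. With averages of log2 values it was 2093 for the first comparison, 22 for Fos and Egr1 and 1213 for cycling, and with averages per plate 7 for Fos and Egr1, 235 for granules and 804 for cycling. A pseudocount of 0.1 gave 6 for Fos and Egr1 and 278 for cycling, and one of 10 gave 967 for cycling. A neutrophil threshold of 1000 TPM gave 25 for Fos and Egr1 and 726 for cycling. One of 50000 TPM gave 696 for the first comparison, 0 for Fos and Egr1 (277 at an unadjusted p under 0.05 in limma), 42 for granules and 713 for cycling. Cells with at least 1000 genes gave 288 for granules. Cells with at least 2000 genes, chosen after seeing the data, gave 3 for Fos and Egr1, 0 for granules (209 at an unadjusted p under 0.05 in limma) and 114 for cycling. Leaving out cycling cells, also chosen after seeing the data, gave 600 between neutrophils and other cells. For Fos and Egr1, 2 in place of 3 parts gave 1, a score not adjusted for genes detected 274, and a wider immediate early list 169. At least 4 or 8 proliferation genes gave 268 or 274 for cycling.

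Rescaled TPM gave 39 genes for Fos and Egr1 and 277 for granules. It moved the share of higher calls to 54.2% for neutrophils against other cells, 64.1% for Fos and Egr1, 45.5% for granules and 30.6% for cycling, where the settings of the report gave 35.3, 85.7, 23.9 and 19.2%.

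Signs turned as follows, as log2 folds. For Fos and Egr1, Hsp90ab1 had -0.056 with rescaled TPM, -0.077 with 50000 TPM, -0.069 with 2 parts and -0.233 with the wider list. Hsp90aa1 had -2.022 with 2000 genes and -0.016 with 2 parts, and Stip1 -2.041 with 2000 genes, -0.944 without adjustment and -1.048 with the wider list. For granules, Stip1 had -0.004 with averages of log2 values, -0.085 with a pseudocount of 10, -0.805 per plate, -0.22 with 1000 genes and -0.427 with cycling cells included. With 2000 genes Hspa5 had 0.037, Hsp90ab1 -0.819 and Dnajb1 0.023. For cycling, averages of log2 values gave Hspa5 2.313, Hspa8 1.461, Hsp90ab1 1.451 and Dnajb1 0.537, and rescaled TPM gave Hspa5 0.035, Hspa8 0.346 and Dnajb1 0.127. Hsp90aa1 had -0.323 per plate and -1.891 with 2000 genes. Hspa8 had 0.139 with 2000 genes, 0.12 with 1000 TPM, 0.1 with 50000 TPM, and 0.09 and 0.077 with at least 4 and 8 proliferation genes. With at least 4, Hsp90ab1 had 0.054 and Dnajb1 0.108.

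With 1 replicate left there is no residual degree of freedom, so folds within each replicate are values with no test. They turned sign for Hspa5 with Fos and Egr1 (-0.165 to 1.566), for Stip1 with granules (-1.149 to 1.289) and, with cycling, for Dnajb1 (-1.087 to 0.449), Hsp90aa1 (-0.81 to 2.328) and Hspa8 (-0.315 to 0.306). For Hspa5 between neutrophils and other cells they were -1.801 and -0.891.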
